A study of Mus musculus with 33 samples.

Results

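The 7 genes described here are the keratins of basal epithelium, Krt5, Krt14, Krt15 and Krt17, and of simple epithelium, Krt8, Krt18 and Krt19. They were taken by symbol from a table of 15273 mouse genes, and all 7 were present and passed the filter on low values in every test. Keratins are the intermediate filament proteins of epithelia. A filament is built from dimers that join an acidic type I chain (Krt14, Krt15, Krt17, Krt18 and Krt19) to a basic type II chain (Krt5 and Krt8), so each chain needs a partner. Krt5 with Krt14 is the pair of the basal layer of stratified epithelia, and Krt8 with Krt18 is the pair of single-layered epithelia. In thymus sections, KRT5 and KRT14 are customary stains for the medulla and KRT8 and KRT18 for the cortex. Krt15 is used as a marker of resting basal cells of the hair follicle, Krt17 is known from hair follicles and from wounded skin, and Krt19 is found in simple ductal epithelia.

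The libraries were 33 bulk MARS-seq libraries of sorted cells from C57BL/6 mice, in which unique molecular identifiers (UMIs) count transcripts at their 3' ends. Thymic epithelial cells (TEC), the stroma that guides T cell development, came from wild-type thymi digested with Liberase TH and DNase. Embryonic TEC were sampled on embryonic day 15 (E15, 2 libraries) and embryonic day 17 (E17, 2 libraries), and day 6 gave 2 of each population titled mTEC1, mTEC2 and mTEC4. The 6-week set had 4 libraries of each of the titles cTEC, mTEC1, mTEC2, mTEC3 and mTEC4, each set carrying the title numbers 189, 191, 195 and 196. The prefixes c and m are the usual short forms for cortical and medullary, and the labels do not give the surface markers behind the titles. The remaining 3 libraries held cells labelled HFC, trypsinised from the shaved dorsal skin of 4-week-old mice of the genotype Foxn1.EGFP positive, a reporter of the transcription factor Foxn1. HFC and TEC thus differed in tissue, genotype, age and dissociation, which cannot be told apart. Nothing in the labels ties the libraries to individual animals, so p-values measure the spread between these libraries, which may be technical.

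Levels are given as CPM, UMIs per 1000000 of a library, and they are not divided by transcript length because a 3' library counts each transcript end. Totals ran from 98670 to 1732688 UMIs, with 1007370 to 1732688 in embryonic TEC, 287189 to 638343 at day 6, 98670 to 1369629 at 6 weeks and 520844 to 679168 in HFC. The titles at 6 weeks went against marker genes, as described next, and the HFC libraries lacked the TEC markers Pax9, Pax1 and Psmb11 (0 UMIs in all 3) while holding 697 to 2131 CPM of 7 hair follicle markers. In a bulk library, fewer cells of a type and less RNA per cell cannot be told apart.

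The 20 libraries at 6 weeks fell into 5 sets of 4 by thresholds on 4 genes. Prss16, a protease of cortical TEC, was above 2000 CPM in 4 libraries and at most 469 CPM in the other 16. Aire, the regulator of tissue-restricted antigens in mTEC, passed 1000 CPM in 4 libraries and reached 216 CPM at most elsewhere. Pth, parathyroid hormone, passed 1000 CPM in 4 libraries and reached 23.0 CPM at most elsewhere. Trpm5, an ion channel of tuft cells, passed 1000 CPM in 4 libraries and reached 90.2 CPM at most elsewhere. No 6-week library passed more than 1 threshold, and 4 passed none. The day 6 titles are given as deposited. Prss16 was 5857 and 7398 CPM in day 6 mTEC1, 2403 and 3536 in mTEC4 and 251.1 and 1243 in mTEC2. A list of 8 cortical TEC markers, Prss16 among them, summed to 16046 and 20766 CPM in day 6 mTEC1. It summed to 5321 and 9417 CPM in mTEC4 and 2044 and 3604 in mTEC2. In the 6-week libraries above 2000 CPM of Prss16 it was 12636 to 22604 CPM, a range that held day 6 mTEC1.

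The sets at 6 weeks did not follow the population titles. The 4 Prss16-high libraries are titled 196 mTEC1, mTEC2, mTEC3 and mTEC4. The 4 Aire-high libraries are titled 189 mTEC4 and 191 cTEC, mTEC1 and mTEC2. The 4 Pth-high libraries are titled 191 mTEC3 and mTEC4 and 195 cTEC and mTEC1, and their totals were low, 98670 to 175014 UMIs. The 4 Trpm5-high libraries are titled 195 mTEC2, mTEC3 and mTEC4 and 196 cTEC. The 4 libraries that passed no threshold are titled 189 cTEC, mTEC1, mTEC2 and mTEC3. In the order of the titles each set is a run of 4 consecutive libraries, and 3 of the runs cross from a title number to the next. Whether the titles were matched to the right libraries cannot be told from the files, so every 6-week title is given here as deposited. Title number and marker set cannot be told apart for most libraries. Because these sets were formed from values of the same libraries, keratin levels in them are a description, without a test, and below they are listed in the title order just given.

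The genes sit in the keratin clusters of the mouse genome (GENCODE M21 on GRCm38). The type I genes Krt15 (chr11:100131758-100135928), Krt19 (chr11:100140810-100148665), Krt14 (chr11:100203162-100207548) and Krt17 (chr11:100256217-100261029) all lie on the minus strand of chromosome 11. Krt5 (chr15:101707070-101712898, minus) and Krt8 (chr15:101996698-102004482, minus) lie on chromosome 15. The type I gene Krt18 (chr15:102028180-102032027, plus) is beside its partner Krt8 and points away from it. A 3' read can be shared between similar transcripts, so the last 400 bases of each gene were searched for 40-base words that occur in another gene. Krt5, Krt15, Krt8 and Krt19 shared 0 of 361 words. Krt14 and Krt17 shared 32 of 361 words each with one another, Krt16 and Krt42, and Krt18 shared 21 of 361 with Gm5200, so reads over those stretches could be assigned to either gene and the values of these 3 genes carry that uncertainty.

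The DNA just before the transcription starts of Krt5, Krt8 and Krt18 is shown, as far as it lies outside annotated transcripts. The sequences are from RefSeq on GRCm38.p6, read 5′ to 3′ on the gene's strand, and the RefSeq window for Krt14 starts inside the gene and is not shown. They cover chr15:101712906-101713155 for Krt5, chr15:102004483-102004592 for Krt8 and chr15:102027966-102028179 for Krt18. Capitals mark a match to the AP-2 motif GCCNNNGGC, AP-2 being a family of factors known from keratinocytes.
Krt5: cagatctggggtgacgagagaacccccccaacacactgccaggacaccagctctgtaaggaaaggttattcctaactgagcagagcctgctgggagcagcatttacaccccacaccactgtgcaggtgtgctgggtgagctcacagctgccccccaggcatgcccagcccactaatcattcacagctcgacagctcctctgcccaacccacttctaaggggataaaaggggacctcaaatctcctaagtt
Krt8: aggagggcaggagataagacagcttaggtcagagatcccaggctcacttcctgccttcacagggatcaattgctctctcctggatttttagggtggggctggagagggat
Krt18: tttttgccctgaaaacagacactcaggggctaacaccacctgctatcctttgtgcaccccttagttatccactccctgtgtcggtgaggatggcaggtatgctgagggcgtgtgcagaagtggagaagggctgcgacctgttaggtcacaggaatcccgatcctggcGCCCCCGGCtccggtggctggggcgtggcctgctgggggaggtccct

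Both strands of the 250 bases before each RefSeq start were searched for the TATA box TATAAA, the GC box GGGCGG, the AP-1 motif TGANTCA and the AP-2 motif. The only match in the windows of Krt5, Krt8, Krt18 and Krt14 was the AP-2 match of Krt18, 83 to 75 bases before the start, and it overlapped no other motif. Among 32851 mouse promoter windows of the same length, 12.4% held the TATA box, 32.7% the GC box, 6.75% the AP-1 motif and 13.7% the AP-2 motif. A match is a description of letters and not a bound site.

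**Figure D1:**
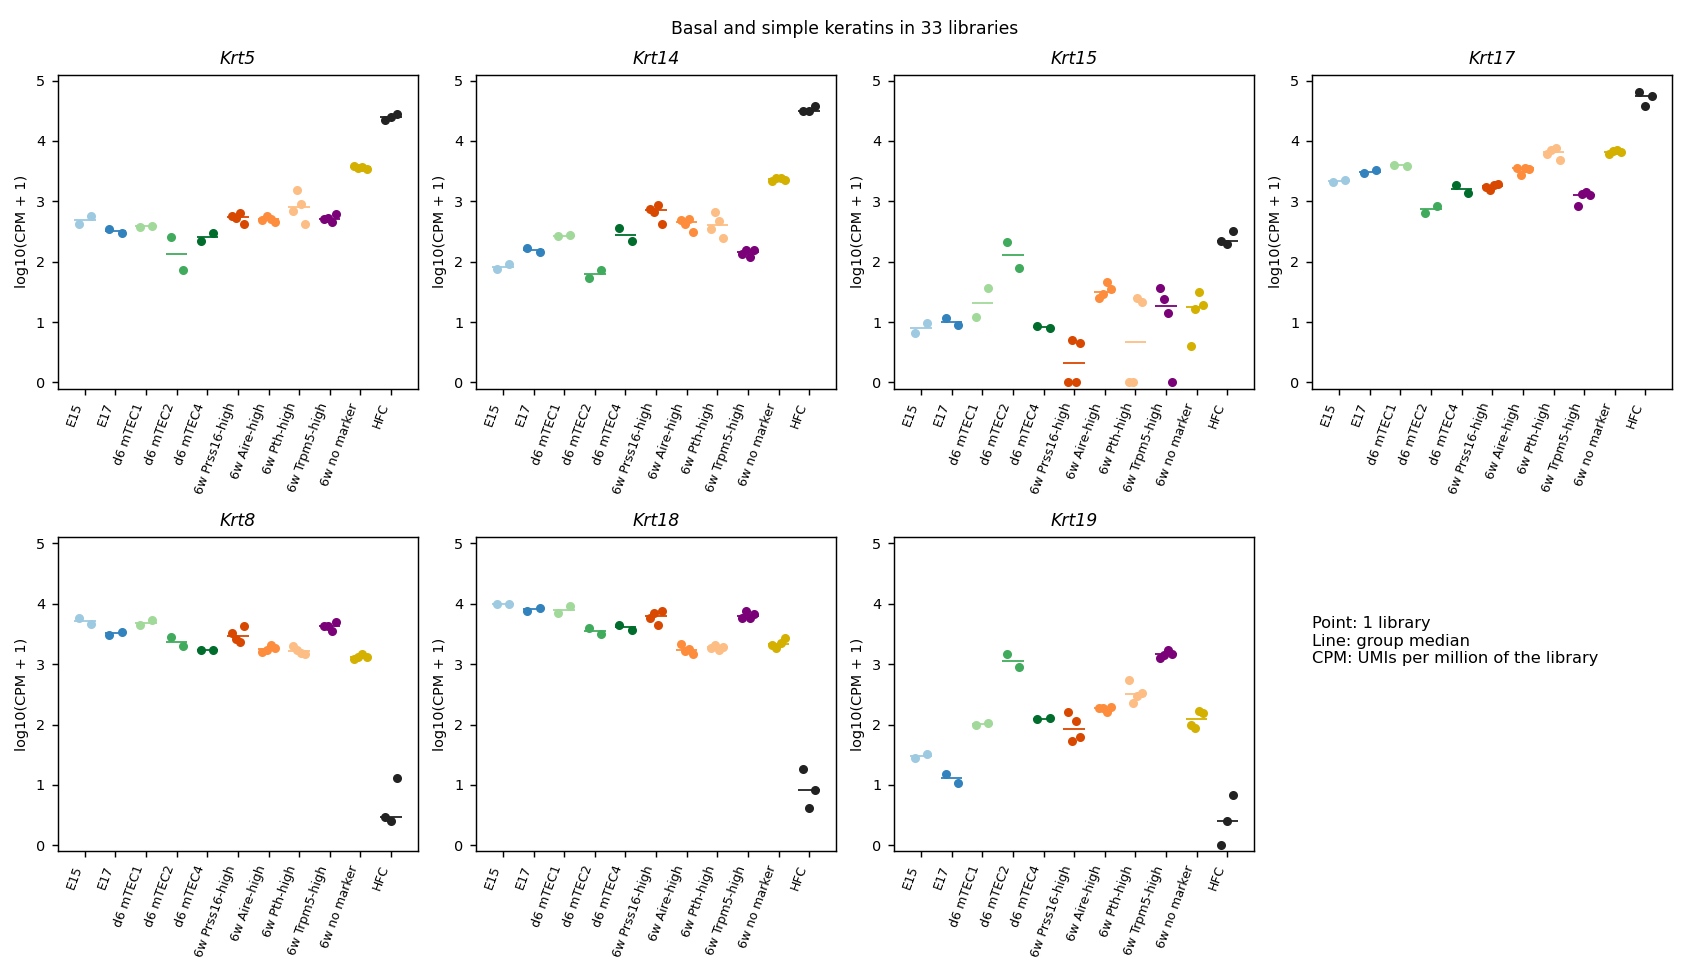
Level of each keratin in 33 libraries, as log10(CPM + 1) on the y axis, by group on the x axis, with the 6-week libraries grouped by marker genes. Each point is 1 library and each line a group median. Krt5, Krt14 and Krt17 were highest in HFC, where Krt8, Krt18 and Krt19 were near 0, and Krt19 was high in the Trpm5-high and day 6 mTEC2 libraries.

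Krt5, the type II chain of the basal pair, had its highest TEC levels in the 6-week libraries without a marker. These 4 held 3883, 3627, 3721 and 3468 CPM. The Pth-high libraries held 697, 1537, 916 and 416 CPM, the Prss16-high libraries 577, 526, 643 and 416, the Aire-high libraries 498, 566, 508 and 461, and the Trpm5-high libraries 505, 532, 459 and 627 CPM. These 4 marker sets overlapped each other, and none reached the range of the libraries without a marker. Among younger TEC it was lower than in the libraries without a marker, with 425 and 571 CPM at E15, 347 and 302 at E17, 378 and 389 in day 6 mTEC1, 255 and 71.7 in day 6 mTEC2 and 218 and 299 in day 6 mTEC4. The 2 day 6 mTEC2 libraries stood far apart. HFC held 21836, 24877 and 28324 CPM, with no overlap with any TEC library.

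Krt14, its type I partner, was also highest in the 6-week libraries without a marker among TEC, at 2161, 2448, 2461 and 2257 CPM. The Prss16-high libraries held 758, 667, 882 and 416 CPM, the Aire-high libraries 494, 416, 500 and 312, and the Pth-high libraries 349, 674, 464 and 243 CPM. The Trpm5-high libraries were lowest at this age, at 135, 156, 118 and 157 CPM, below every other 6-week library. At E15 Krt14 was 73.7 and 91.8 CPM and at E17 168 and 142 CPM. At day 6 it was 262 and 277 CPM in mTEC1, 52.3 and 71.7 in mTEC2 and 355 and 219 in mTEC4. HFC held 31595, 31364 and 37636 CPM.

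The 2 chains of the basal pair were therefore not in a fixed ratio. Krt5 exceeded Krt14 5.77-fold and 6.23-fold at E15 and 2.06-fold and 2.13-fold at E17. At 6 weeks the ratio of Krt5 to Krt14 was 3.40 to 4.00 in the Trpm5-high libraries, 1.71 to 2.28 in the Pth-high, 1.48 to 1.80 in those without a marker, 1.01 to 1.48 in the Aire-high and 0.729 to 1 in the Prss16-high libraries. It was 0.691 to 0.793 in HFC. In the Trpm5-high libraries Krt5 overlapped the other 3 marker sets while Krt14 lay below them.

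Krt17, a type I keratin, was the most abundant of the 4 basal keratins in every TEC library and in all 3 HFC libraries. HFC held 64282, 38141 and 54984 CPM. The 6-week libraries without a marker held 5965, 6783, 7134 and 6496 CPM and the Pth-high libraries 6045, 7100, 7584 and 4773 CPM, which overlapped although Krt5 did not. The Aire-high libraries held 2740 to 3627 CPM, the Prss16-high 1564 to 1961 and the Trpm5-high 837 to 1436 CPM. Embryonic TEC held 2078 and 2224 CPM at E15 and 2921 and 3323 at E17, and day 6 libraries 3943 and 3912 in mTEC1, 652 and 828 in mTEC2 and 1843 and 1375 in mTEC4. The ratio of Krt17 to Krt5 was 1.54 to 1.92 in the libraries without a marker and 4.62 to 11.5 in the Pth-high libraries, with no overlap.

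Krt15 was low in nearly all TEC. It reached 212 and 77.7 CPM in the day 6 mTEC2 libraries and 217, 197 and 322 CPM in HFC. Every other TEC library held at most 45.5 CPM, the highest being an Aire-high library, and Krt15 had 0 UMIs in 2 Prss16-high, 2 Pth-high and 1 Trpm5-high library. Counts this low carry wide counting error.

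Krt8, the type II chain of the simple pair, had its highest median at E15, with 5883 and 4542 CPM, a range that day 6 mTEC1 and the Trpm5-high libraries overlapped. E17 held 3066 and 3458 CPM, and the day 6 libraries 4396 and 5324 in mTEC1, 2831 and 1970 in mTEC2 and 1724 and 1720 in mTEC4. At 6 weeks the Trpm5-high libraries held 4241, 4300, 3565 and 5055 CPM and the Prss16-high libraries 3329, 2616, 2360 and 4296 CPM. The Aire-high libraries held 1602, 1692, 2098 and 1818 CPM, the Pth-high 1960, 1740, 1523 and 1449, and the libraries without a marker 1236, 1328, 1461 and 1288 CPM. The first 2 of these sets overlapped each other and lay above the other 3.

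Krt18, its type I partner, followed a similar order. It was 9858 and 10002 CPM at E15, 7595 and 8660 at E17, 7147 and 9019 in day 6 mTEC1, 4031 and 3198 in day 6 mTEC2 and 4448 and 3677 in day 6 mTEC4. At 6 weeks the Prss16-high libraries held 5782, 6918, 4500 and 7657 CPM and the Trpm5-high libraries 5754, 7655, 5868 and 6731 CPM. The libraries without a marker held 2103, 1872, 2276 and 2677 CPM, the Pth-high 1846, 2036, 1743 and 1936, and the Aire-high 2141, 1623, 1798 and 1474 CPM. Again the Prss16-high and Trpm5-high libraries lay above all other 6-week libraries.

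The simple pair kept a narrower ratio than the basal pair. Krt8 was 0.378 to 0.751 of Krt18 in the Prss16-high, Trpm5-high and unmarked 6-week libraries and in embryonic and day 6 TEC. It was 0.748 to 1.23 in the Aire-high and 0.749 to 1.06 in the Pth-high libraries. Over the 20 libraries at 6 weeks the Pearson correlation of log2 levels was 0.871 for Krt8 with Krt18, 0.829 for Krt5 with Krt14 and −0.892 for Krt17 with Krt8. These are descriptions over 20 libraries that form 5 sets, and they share library depth and the constraint that shares of a library sum to a fixed total.

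Krt19, a type I simple keratin, had its own pattern. It was highest in the Trpm5-high libraries, at 1275, 1427, 1745 and 1479 CPM, and in day 6 mTEC2, at 1489 and 882 CPM, and these ranges overlapped. The Pth-high libraries held 537, 229, 297 and 334 CPM, and the 12 other 6-week libraries 51.5 to 194 CPM. Day 6 mTEC1 held 97.1 and 103 CPM and mTEC4 124 and 125 CPM. Embryonic TEC held only 27.2 and 31.2 CPM at E15 and 14.1 and 9.93 at E17. A list of 6 tuft cell markers, Trpm5 among them, summed to 5526 to 6024 CPM in the Trpm5-high and 2185 to 3004 CPM in the day 6 mTEC2 libraries, against at most 337 CPM in the other 24 TEC libraries, and its part in the Krt19 level was not tested.

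**Figure D2:**
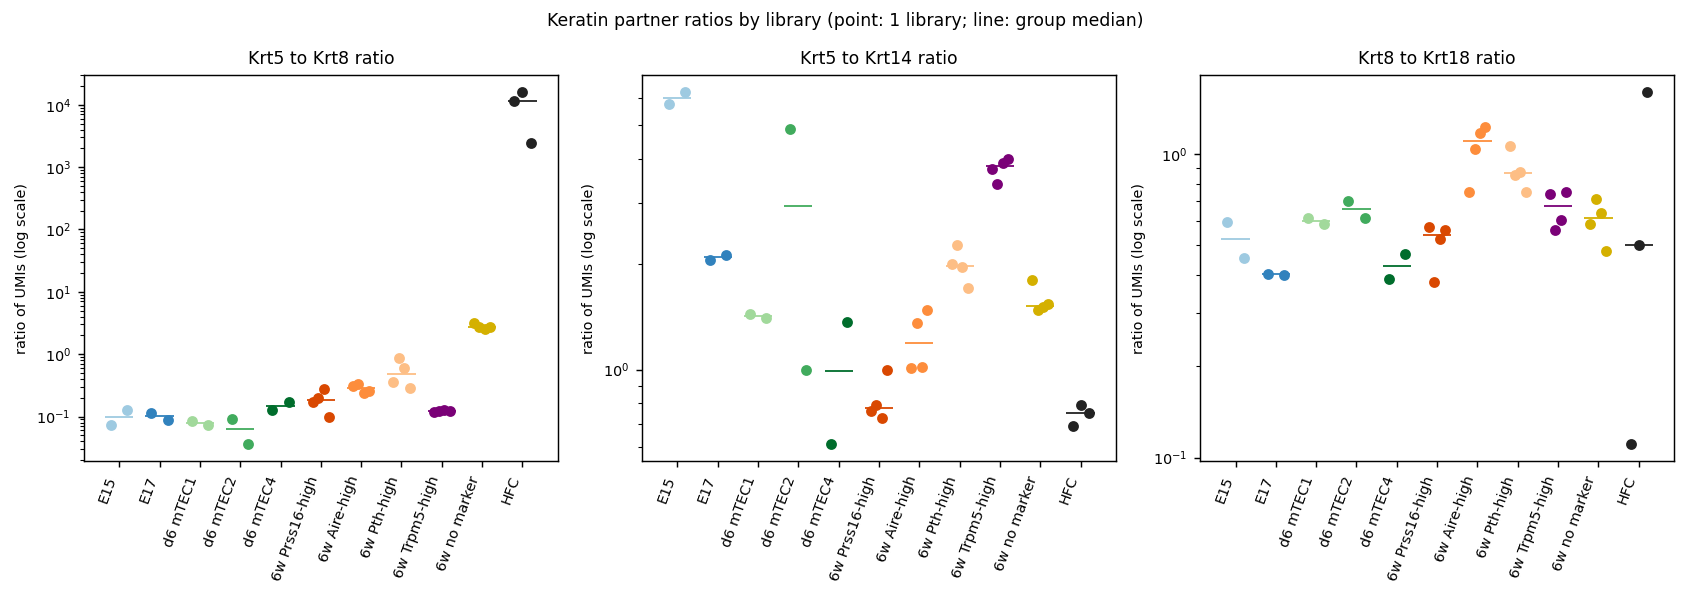
Ratio of UMIs of Krt5 to Krt8, Krt5 to Krt14 and Krt8 to Krt18 in each of 33 libraries on log axes, by group on the x axis. Each point is 1 library and each line a group median. Krt5 exceeded Krt8 only in the 4 unmarked 6-week libraries and HFC, and the HFC ratios with Krt8 or Krt18 rest on 1 to 9 UMIs.

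The ratio of the 2 type II chains, Krt5 to Krt8, set the 6-week libraries without a marker apart from all other TEC. It was 3.14, 2.73, 2.55 and 2.69 in those 4 libraries. It was 0.287 to 0.884 in the Pth-high, 0.242 to 0.334 in the Aire-high, 0.0968 to 0.272 in the Prss16-high and 0.119 to 0.129 in the Trpm5-high libraries. E15 and E17 libraries ranged from 0.0723 to 0.126 and day 6 libraries from 0.0364 to 0.174. Krt5 thus exceeded Krt8 in 4 of 30 TEC libraries.

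The ratio of Krt14 to Krt18 was 0.843 to 1.31 in the libraries without a marker. It was 0.126 to 0.331 in the Pth-high, 0.212 to 0.278 in the Aire-high, 0.0543 to 0.196 in the Prss16-high and 0.0200 to 0.0234 in the Trpm5-high libraries. At E15 it was 0.00748 and 0.00917. The summed basal keratins exceeded the summed simple keratins 2.97-fold to 3.92-fold in the libraries without a marker, 1.47-fold to 2.52-fold in the Pth-high and 1.07-fold to 1.21-fold in the Aire-high libraries. In the Prss16-high and Trpm5-high libraries the basal sum was 0.134 to 0.491 of the simple sum, and in embryonic and day 6 TEC 0.140 to 0.395.

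**Figure D3:**
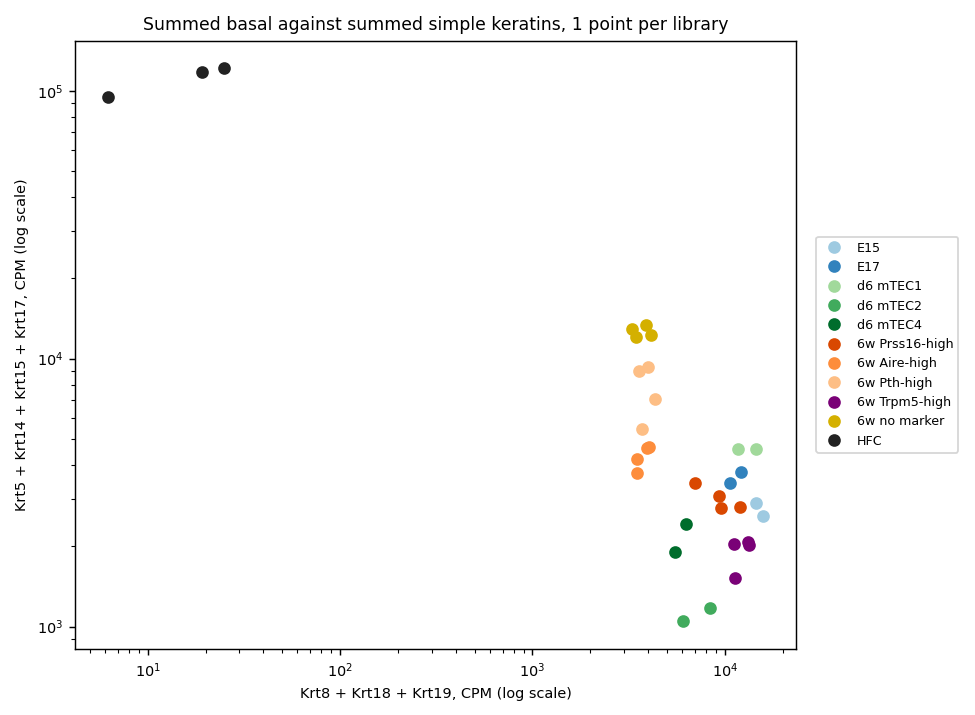
Summed basal keratins (Krt5, Krt14, Krt15 and Krt17, y axis) against summed simple keratins (Krt8, Krt18 and Krt19, x axis), both in CPM on log axes, 1 point per library, coloured by group. The unmarked, Pth-high and Aire-high 6-week libraries lie at low simple and rising basal sums, and HFC lies far from all TEC.

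As shares of all UMIs, the 7 keratins took 0.710% to 1.91% of a TEC library and 9.46% to 12.1% of an HFC library. The 3 simple keratins took a median of 0.367% of the unmarked, 0.386% of the Pth-high and 0.371% of the Aire-high libraries, against 0.943% of the Prss16-high, 1.23% of the Trpm5-high and 1.34% of the embryonic libraries. Within the 7 keratins, Krt18 was 53.7% to 57.2% of the UMIs in embryonic TEC and 11.6% to 16.4% in the unmarked 6-week libraries. Krt17 was 52.0% to 60.4% in the Pth-high libraries, the highest among TEC.

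**Figure D4:**
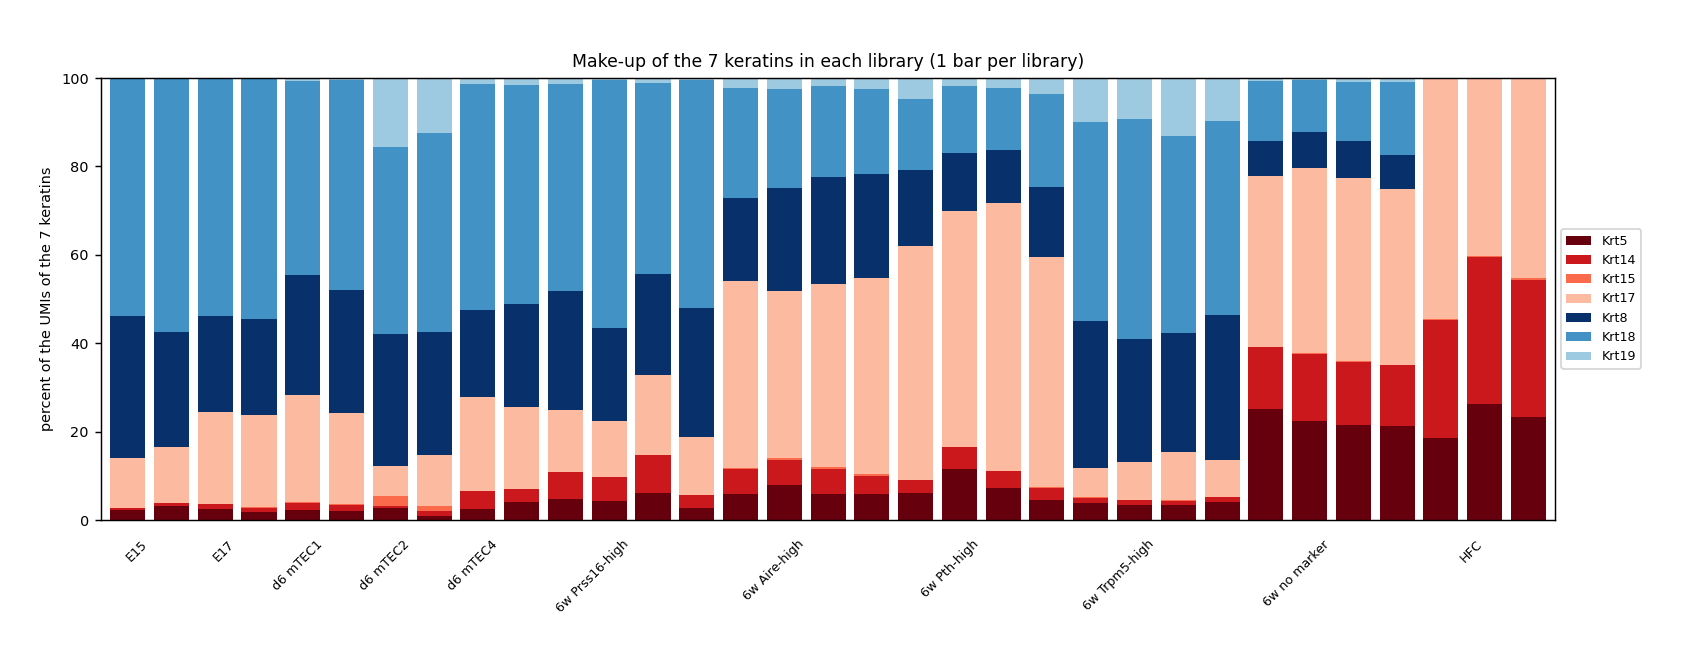
Make-up of the UMIs of the 7 keratins in each library, in percent, 1 bar per library, grouped along the x axis. Simple keratins in blue fill most of the embryonic, day 6, Prss16-high and Trpm5-high bars, Krt17 most of the Pth-high bars, and HFC bars hold almost no blue.

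Markers of other cells differed between the 6-week sets and their part was not tested. The sum of 5 endothelial markers was 77.3 to 1064 CPM in the Pth-high, 58.7 to 394 in the Prss16-high, 23.5 to 389 in the unmarked and at most 96.7 CPM in the Aire-high and Trpm5-high libraries. The sum of 5 mesenchymal markers was 595 to 2858 CPM in the Pth-high, 878 to 1689 in the Prss16-high, 210 to 623 in the unmarked, 60.6 to 153 in the Aire-high and 46.2 to 111 CPM in the Trpm5-high libraries. The sum of 7 cornified keratinocyte markers was 5374 to 10367 CPM in the Pth-high libraries, 283 to 3033 in the unmarked and at most 1597 CPM in the other sets. The sum of 5 myeloid markers was 1081 to 1542 CPM in the Aire-high, 535 to 649 in the Pth-high, 64.1 to 342 in the unmarked, 95.9 to 280 in the Trpm5-high and 23.0 to 53.3 CPM in the Prss16-high libraries. The sum of 9 thymocyte markers was 152 to 455 CPM in the Prss16-high, 132 to 381 in the Pth-high, 29.8 to 235 in the Trpm5-high, 17.6 to 84.7 in the unmarked and 70.1 to 78.7 CPM in the Aire-high libraries.

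No keratin passed in the comparison that the 6-week titles imply. A moderated F-test in limma over the 5 titles called 0 of 13610 genes (0% called) and 0 of 7 keratins, with an adjusted p of 1 for each. At an unadjusted p under 0.05 there were 70 genes, and edgeR and DESeq2 also called 0. Each title held libraries of several marker sets, so this result bears on the titles as deposited, whose match to the libraries is in doubt.

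HFC were compared with all 20 TEC libraries at 6 weeks as 1 group. These 20 are a mixture of marker sets with unlike keratin levels, so the SE and p-values here include the spread between sets. All 4 basal keratins were higher in HFC and all 3 simple keratins were lower, in a comparison where limma called 23.8% of 13743 genes, 4.61% higher and 19.2% lower. Krt5 ranged from 416 to 3883 CPM in the 20 TEC libraries and from 21836 to 28324 in HFC, a log2 change of 4.88 ± 0.62 (SE, adjusted p = 1.15e-06). Krt14 changed by 6.01 ± 0.73 (adjusted p = 5.31e-07) and Krt17 by 4.04 ± 0.55 (adjusted p = 3.4e-06). Krt15 changed by 4.52 ± 0.98 (adjusted p = 0.00112), from 0 to 45.5 CPM in TEC to 197 to 322 CPM in HFC. For each of these 4 genes no TEC library at 6 weeks reached the HFC range, which adds nothing to calls made from the same libraries. The share of all genes without overlap was not counted.

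The simple keratins of HFC were at a handful of molecules. Krt8 had 1, 1 and 8 UMIs in the 3 libraries, Krt18 9, 2 and 5 and Krt19 0, 1 and 4. In CPM, Krt8 was 1.92, 1.56 and 11.8, with exact Poisson 95% intervals that reach 23.2 CPM at most, against 1236 to 5055 CPM in TEC at 6 weeks. The 0 of Krt19 in a library of 520844 UMIs has an exact Poisson upper bound of 7.08 CPM, and a floor of 3 UMIs there is 5.76 CPM. Intervals and floors cover counting error only. The log2 changes were −8.65 ± 0.42 for Krt8 (adjusted p = 1.83e-14), −8.36 ± 0.50 for Krt18 (adjusted p = 1.33e-12) and −6.14 ± 0.82 for Krt19 (adjusted p = 2.74e-06), on a scale with 1 normalised UMI added, which understates changes of genes this low. The median of all genes was −0.78 in this comparison and −0.44 after median of ratios scaling, so the higher levels in HFC stand out more, and the lower ones less, against other genes. The ratio of Krt5 to Krt8 in HFC was 11373, 15946 and 2405, values that depend on 1, 1 and 8 Krt8 UMIs.

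Among 35 tested keratins outside the 7, HFC were higher for 11 and lower for 3, beside 4.61% higher and 19.2% lower over all genes tested. Krt6a, a type II keratin of hair follicles and wounded skin, rose by 9.17 ± 0.93 (adjusted p = 2.71e-08), with a median of 12991 CPM in HFC and 19.2 CPM in 6-week TEC. Krt79 rose by 7.05 ± 1.18 (adjusted p = 5.85e-05). Krt7, a type II keratin of simple epithelia, fell by 6.21 on the log2 scale (SE 0.56, adjusted p = 3.49e-09), from a median of 523.8 CPM to 5.89 CPM, in the direction of the 3 simple keratins. Within TEC it did not follow Krt8, as its median was highest in the unmarked 6-week libraries (1289 CPM), where that of Krt8 was lowest. The Krt7 median was 88.7 CPM at E15, where that of Krt8 was highest, and 749.6 CPM in day 6 mTEC1.

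Of 20 tested genes that anchor keratin filaments to desmosomes and hemidesmosomes, 9 were higher in HFC and 2 lower, with a median of 0.94 against −0.78 over all genes, of which 4.61% were higher and 19.2% lower. Dsp, desmoplakin, which ties keratin to the desmosome, rose by 2.61 ± 0.34 (adjusted p = 2.2e-06), and the desmosomal cadherin Dsg3 rose by 4.98 ± 0.57 (adjusted p = 2.33e-07). Perp, a desmosomal membrane protein, rose by 2.87 ± 0.39 (adjusted p = 3.21e-06). Of 15 regulators of epithelial and keratinocyte genes, 4 were higher and 1 lower, beside the same shares. Sfn, the keratinocyte 14-3-3 protein, rose by 4.17 ± 0.32 (adjusted p = 1.12e-10) and the AP-2 gene Tfap2a by 3.80 ± 0.67 (adjusted p = 0.000112), while Elf3, an Ets factor of epithelia, fell by 3.18 on the log2 scale (SE 1.07, adjusted p = 0.0315).

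**Figure D5:**
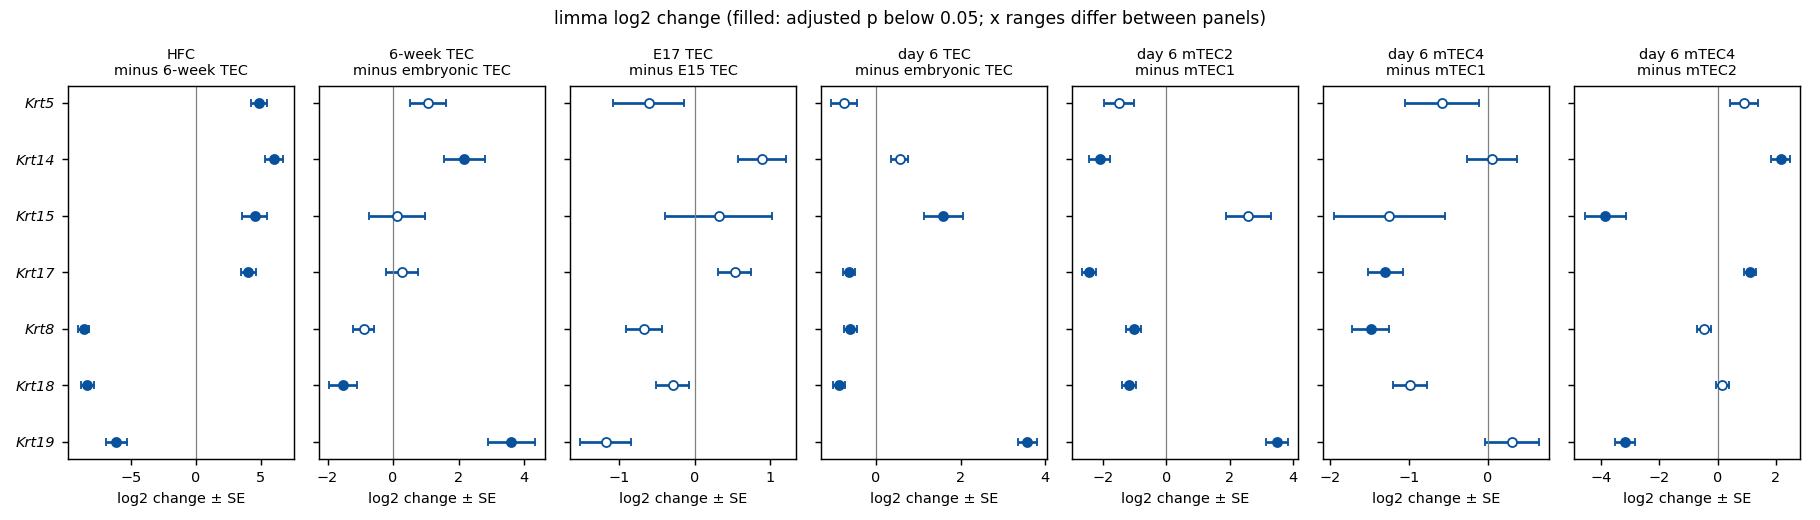
log2 change (x axis, with its SE) of each of the 7 keratins (y axis) in 7 comparisons fitted with limma, 1 panel each, with x ranges that differ between panels. Filled points passed an adjusted p of 0.05. All 7 are filled for HFC minus 6-week TEC and none for E17 minus E15.

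The 6-week TEC libraries, taken as 1 group, were compared with the 4 embryonic libraries. These comparisons share libraries with the one before and with the day 6 comparisons below, so they are not independent of each other. Krt14 and Krt19 were higher at 6 weeks and Krt18 was lower, where 15.1% of 13732 genes were called, 8.32% higher and 6.82% lower. Krt19 rose by 3.61 ± 0.71 (adjusted p = 0.000779), from 9.93 to 31.2 CPM in embryos to 51.5 to 1745 CPM, with no overlap. How many of all genes had no overlap was not counted. Krt14 rose by 2.18 ± 0.64 (adjusted p = 0.0206), from 73.7 to 168 CPM to 118 to 2461 CPM, and only the Trpm5-high libraries overlapped the embryonic range. Krt18 fell by 1.53 on the log2 scale (SE 0.42, adjusted p = 0.0121), from 7595 to 10002 CPM to 1474 to 7657 CPM.

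The other 4 keratins did not pass. Krt8 differed by −0.90 ± 0.33 (adjusted p = 0.0658) and passed with median of ratios scaling (adjusted p = 0.0411), edgeR (adjusted p = 0.0198) and DESeq2 (adjusted p = 0.0308). Krt5 differed by 1.07 ± 0.54 (adjusted p = 0.195) and passed with DESeq2 (1.47, adjusted p = 0.0402). Krt17 differed by 0.27 ± 0.48 (adjusted p = 0.745) and Krt15 by 0.11 ± 0.86 (adjusted p = 0.948). Without E15 library 1 the adjusted p of Krt14 was 0.101 and of Krt18 0.055, and without E15 library 2 they were 0.0844 and 0.0571. The 20 libraries at 6 weeks are a mixture of sets with opposite keratin ratios, so the spread behind these p-values includes that between sets. The embryonic cells were not split into populations by the titles. The 8 cortical TEC markers summed to 9889 to 12575 CPM in embryos and 12636 to 22604 CPM in the Prss16-high libraries. The other 6-week libraries held at most 2533 CPM of them, and the part of this list was not tested. Markers of other cells also differed between the ages. Mesenchymal markers summed to 46.2 to 2858 CPM at 6 weeks and 13.6 to 146 CPM in embryos, endothelial markers to 15.6 to 1064 against 0.801 to 21.8 CPM, myeloid markers to 23.0 to 1542 against 8.66 to 63.6 CPM and thymocyte markers to 17.6 to 455 against 23.2 to 45.7 CPM, and their part was not tested.

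Among 33 tested keratins outside the 7, 7 were higher at 6 weeks and 0 lower, beside 8.32% higher and 6.82% lower over all genes tested. Krt23 rose by 4.41 ± 1.23 (adjusted p = 0.0151), Krt78 by 3.91 ± 1.17 (adjusted p = 0.0232) and Krt16, a keratin of activated skin, by 3.87 ± 1.22 (adjusted p = 0.0298). Among TEC their medians were highest in the Pth-high set, at 269.7, 329.0 and 776.1 CPM. Of 19 anchoring genes, 3 were higher and 1 lower, close to the 15.1% called over all genes. Pkp1, plakophilin 1 of stratified desmosomes, rose by 2.31 ± 0.39 (adjusted p = 0.000134) and Dsp fell by 1.09 on the log2 scale (SE 0.31, adjusted p = 0.0163). Of 15 regulators, 5 were higher and 1 lower, beside the same 15.1%, with Klf4, a factor of epithelial differentiation, up by 4.85 ± 0.46 (adjusted p = 2.66e-08) from a median of 12.1 to 461.7 CPM.

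E17 was compared with E15 in a fit that shares its spread with the day 6 libraries. No keratin of the 7 passed, where 0.762% of 11543 genes were called, 0.745% higher and 0.0173% lower. The smallest adjusted p was 0.294, for Krt19, which differed by −1.18 ± 0.34. Krt14 differed by 0.89 ± 0.32 (adjusted p = 0.555), Krt8 by −0.67 ± 0.24 (adjusted p = 0.555) and Krt17 by 0.53 ± 0.22 (adjusted p = 0.766). Fitted on the 4 embryonic libraries without day 6, Krt14 passed (adjusted p = 0.0419). Krt7, the only one of 22 other keratins called, rose by 1.90 ± 0.28 (adjusted p = 0.0149), from a median of 88.7 to 341.1 CPM.

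The 6 day 6 libraries were compared with the 4 embryonic ones as the mean of 3 titles against the mean of 2 ages. Of the 7 keratins 5 passed, where 16% of 11543 genes were called, 10.2% higher and 5.79% lower. Krt19 rose by 3.58 ± 0.22 (adjusted p = 7.65e-06) and Krt15 by 1.59 ± 0.46 (adjusted p = 0.0396). Krt18 fell by 0.88 on the log2 scale (SE 0.14, adjusted p = 0.00199), Krt17 by 0.64 (SE 0.14, adjusted p = 0.0125) and Krt8 by 0.60 (SE 0.15, adjusted p = 0.023). Krt5 differed by −0.75 ± 0.30 (adjusted p = 0.128), and passed without day 6 mTEC2 library 1 (−1.05, adjusted p = 0.000986). Krt14 differed by 0.56 ± 0.21 (adjusted p = 0.0946), and passed with DESeq2 (adjusted p = 0.0435), without mTEC4 library 2 (adjusted p = 0.0433) and without mTEC2 library 1 (adjusted p = 0.0295).

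The Krt19 values did not overlap between the ages, and day 6 mTEC2 lay far above the other 2 titles. The share of all genes without overlap was not counted. Krt17 in day 6 mTEC1 (3943 and 3912 CPM) lay above the embryonic range of 2078 to 3323 CPM, and in mTEC2 and mTEC4 below it. Krt8 and Krt18 overlapped the embryonic range in mTEC1 and lay below it in mTEC2 and mTEC4. Krt15 in mTEC4 (7.78 and 6.96 CPM) lay within the embryonic range of 5.61 to 10.6 CPM. The call on Krt15 was lost without 7 of the 10 libraries in turn or with no filter, with adjusted p from 0.052 to 0.161 in these settings, and Krt17 and Krt8 each lost theirs without some libraries (adjusted p up to 0.0831 and 0.123). The sum of 9 thymocyte markers was 478 to 772 CPM at day 6 and 23.2 to 45.7 CPM in embryos. Endothelial markers summed to 82.4 to 2319 against 0.801 to 21.8 CPM, mesenchymal markers to 428 to 2249 against 13.6 to 146 CPM and myeloid markers to 375 to 616 against 8.66 to 63.6 CPM, and the part of these 4 lists was not tested.

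Within day 6, mTEC2 was compared with mTEC1 by title, and the cortical TEC markers of these titles are given above. Krt14, Krt17, Krt8 and Krt18 were lower in mTEC2 and Krt19 was higher, where 6.15% of 11543 genes were called, 3.2% lower and 2.95% higher. Krt17 fell by 2.42 on the log2 scale (SE 0.22, adjusted p = 0.000837) and Krt14 by 2.10 (SE 0.32, adjusted p = 0.00554). Krt18 fell by 1.16 (SE 0.22, adjusted p = 0.0136) and Krt8 by 1.03 (SE 0.24, adjusted p = 0.0304). Krt19 rose by 3.49 ± 0.34 (adjusted p = 0.00101), from 97.1 and 103 CPM to 1489 and 882 CPM. In each of these 5 genes the values of the 2 titles did not overlap, which adds nothing to calls made from the same libraries. The share of all genes without overlap was not counted.

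Krt5 differed by −1.49 ± 0.47 (adjusted p = 0.0934), and without mTEC2 library 1 by −2.39 (adjusted p = 0.000428). Krt15 differed by 2.59 ± 0.71 (adjusted p = 0.0585). It passed with edgeR (adjusted p = 0.0267), DESeq2 (adjusted p = 0.0107) and a pseudocount of 5 (adjusted p = 0.0249). Without mTEC2 library 2 the Krt15 difference was 3.31. The sum of 5 endothelial markers was 82.4 and 86.2 CPM in mTEC1 and 505 and 2319 CPM in mTEC2, and that of 5 TEC markers 1320 and 1524 against 206 and 434 CPM, and their part was not tested. Fitted with limma on these 4 libraries alone, 0 genes passed (1519 at an unadjusted p under 0.05), and the adjusted p was 0.0511 for Krt17 and Krt19. Without mTEC1 library 1 or 2, Krt14 had an adjusted p of 0.0508 or 0.0704, Krt18 of 0.058 or 0.151 and Krt8 of 0.106 or 0.227.

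Some genes that anchor the filaments were also lower in mTEC2. Of 18 anchoring genes 5 were lower and 0 higher, beside 3.2% lower and 2.95% higher over all genes tested. Lamb3 and Lama3, chains of the laminin beneath basal cells, fell by 4.15 (SE 0.65, adjusted p = 0.00663) and 2.09 (SE 0.42, adjusted p = 0.0174) on the log2 scale. Krt7 fell by 1.79 on the log2 scale (SE 0.28, adjusted p = 0.00643). Of 12 regulators, 3 were higher and 2 lower, beside the same shares. Klf5 rose by 3.58 ± 0.86 (adjusted p = 0.0361) and Klf4 by 3.02 ± 0.72 (adjusted p = 0.0351), and Sfn fell by 1.78 on the log2 scale (SE 0.25, adjusted p = 0.00408).

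Day 6 mTEC4 had lower Krt17 and Krt8 than mTEC1, where 1.33% of 11543 genes were called, 0.944% lower and 0.39% higher. Krt8 fell by 1.49 on the log2 scale (SE 0.24, adjusted p = 0.0256) and Krt17 by 1.30 (SE 0.22, adjusted p = 0.0288). Krt18 differed by −0.99 ± 0.22 (adjusted p = 0.0552), Krt5 by −0.58 ± 0.47 (adjusted p = 0.607), Krt15 by −1.25 ± 0.71 (adjusted p = 0.445), Krt19 by 0.31 ± 0.34 (adjusted p = 0.729) and Krt14 by 0.05 ± 0.32 (adjusted p = 0.968). Krt18 passed with DESeq2 (adjusted p = 0.00797), with a pseudocount of 5 (adjusted p = 0.0415) and without mTEC2 library 1 or 2 (adjusted p = 0.0157 and 0.0171). The calls of Krt8 and Krt17 were lost without either mTEC1 library (adjusted p of 0.135 and 0.194 for Krt8, 0.17 and 0.192 for Krt17), and over 19 other settings Krt8 passed in 13 and Krt17 in 11. The sum of 5 mesenchymal markers was 428 and 511 CPM in mTEC1 and 1115 and 2249 CPM in mTEC4, and that of endothelial markers was 822 and 1096 CPM in mTEC4, and their part was not tested.

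Against mTEC2, mTEC4 had higher Krt14 and Krt17 and lower Krt15 and Krt19, where 7.36% of 11543 genes were called, 2.42% higher and 4.94% lower. Krt14 rose by 2.16 ± 0.32 (adjusted p = 0.00468) and Krt17 by 1.11 ± 0.22 (adjusted p = 0.0167). Krt19 fell by 3.18 on the log2 scale (SE 0.34, adjusted p = 0.00124) and Krt15 by 3.84 (SE 0.71, adjusted p = 0.0127). Krt8 differed by −0.46 ± 0.24 (adjusted p = 0.277), Krt18 by 0.17 ± 0.22 (adjusted p = 0.675) and Krt5 by 0.90 ± 0.47 (adjusted p = 0.278). The Krt5 difference was 1.81 without mTEC2 library 1 (adjusted p = 0.00211) and −0.00029 without mTEC2 library 2, and Krt17 lost its call without mTEC4 library 1 (adjusted p = 0.0686). On these 4 libraries alone none of the 4 calls was kept, with adjusted p from 0.0817 for Krt19 to 0.317 for Krt17. Of 22 other keratins 6 were lower in mTEC4 and 0 higher, led by Krt6a, which fell by 6.07 on the log2 scale (SE 1.05, adjusted p = 0.00945). The sum of 6 tuft cell markers was 23.3 and 52.2 CPM in mTEC4 and 2185 and 3004 CPM in mTEC2. Mesenchymal markers summed to 1115 and 2249 against 542 and 652 CPM and TEC markers to 949 and 1107 against 206 and 434 CPM. The part of these lists was not tested.

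The genes whose log2 levels were most like each keratin over the 30 TEC libraries, among 7285 genes, were named by Pearson correlation as a description. Krt5 was followed most closely by Cald1 (0.865) and Mpzl2 (0.846), and Krt14 by Tpm2 (0.901), Ifi202b (0.864) and Tagln (0.863). Cald1, Tpm2 and Tagln encode actin-binding proteins known from smooth muscle. Those given for Krt17 are Lhpp (0.781) and Fam20c (0.773), and for Krt15 they were Agr2 (0.677), Cog2 (0.642) and Pld4 (0.623). Krt8 and Krt18 were each other's closest gene (0.879), followed by Srp14 (0.781) and Tuba1c (0.746) for Krt8 and Capn1 (0.867) and Sod1 (0.857) for Krt18. Krt19 was followed by Plac8 (0.931), Lrp10 (0.921) and Fyb (0.914). The libraries share depth, age and marker set, which these coefficients do not separate.

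Tagln had medians of 1193 CPM in the unmarked and 1067 CPM in the Prss16-high libraries, the 2 sets with the highest median Krt14 among TEC. In the other 6-week sets its median was 58.5 to 172.5 CPM. Plac8 had medians of 1315 CPM in the Trpm5-high and 620.6 CPM in the day 6 mTEC2 libraries, the 2 groups with the highest Krt19.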

How the data were processed

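In the authors' deposited signal table every column sums to 100, so a gene's value is its percent of the UMIs. STAR 2.4.2a, HTSeq, DESeq2, cutadapt, bcl2fastq and the build mm10 are named without roles per the submitters' processing notes. Whole UMIs were recovered from the value of 1 UMI in all 33 libraries (tolerance 0.01). Shares were scaled to the median total of 570253 UMIs, and log2(value + 1) of genes with 5 or more normalised UMIs in at least 2 libraries of a fit was tested with limma 3.58.1 (trend, two-sided, Benjamini-Hochberg over all genes tested, threshold 0.05) in R 4.3.3, checked on simulated data. CPM is the share times a constant. The 6-week libraries were 1 group in tests. Marker sets and partner ratios got no test. Alternatives used edgeR 4.0.16 and DESeq2 1.42.0 on recovered UMIs, other pseudocounts, filters and scalings, a replicate block and omitted libraries. Members and lists were chosen with earlier results of these data known. Named genes are the 7 members, the 3 genes most like each, and per comparison up to 3 other keratins (largest change) and up to 4 anchoring and 4 regulator genes (smallest adjusted p) among those called, of which the text gives a part, with a few genes not reported here. Totals of 98670 to 1732688 UMIs set the precision, and a count of 0 allows up to 3 UMIs. Python 3.11.15 was used for descriptions.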

Additional observations from a re-analysis of the deposited data

Results flagged for a closer look

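In the 5 titled populations at 6 weeks, 12 of 35 tests of a keratin in a group of 4 libraries found 1 library far from the other 3, by its gap relative to the range of the group. Chance flags about 1 in 20 such groups, and the match of titles to libraries is in doubt at this age. For Krt5, the library numbered 189 stood apart in cTEC (3883 CPM, against 566 to 916 in the others), mTEC1 (3627 CPM, against 416 to 577), mTEC2 (3721 CPM, against 461 to 526) and mTEC3 (3468 CPM, against 532 to 697), and these 4 libraries are the ones that passed no marker threshold. In mTEC4 it was the Pth-high library 191, with 1537 CPM against 416 to 498.

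Krt14 stood apart in cTEC 189, with 2161 CPM against 157 to 464. The Trpm5-high library cTEC 196 stood apart for Krt8 (5055 CPM, against 1236 to 1692), Krt18 (6731 CPM, against 1623 to 2103) and Krt19 (1479 CPM, against 95.3 to 297). Krt18 stood apart in the Prss16-high library mTEC1 196, with 5782 CPM against 1798 to 1936. Krt19 stood apart in the Trpm5-high libraries mTEC2 195 (1275 CPM, against 51.5 to 194) and mTEC4 195 (1745 CPM, against 60.4 to 229).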

How the results depend on the processing

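Of 1025 results of single keratins under alternatives, 949 kept their direction and side of the threshold, including 84 of 84 for HFC minus 6-week TEC. The 949 also include 194 of 194 from the F-test over the 6-week titles. That test has no direction, and no keratin passed it in any setting. Reversals were of uncalled values: Krt15, 6-week minus embryonic, was −0.07 with a pseudocount of 0.5 and −0.03 to 0.22 with 1 embryonic library left out (lowest without E15 library 1), Krt14, day 6 mTEC4 minus mTEC1, was −0.29 without mTEC4 library 1 and 0.40 without library 2, and Krt5, mTEC4 minus mTEC2, was −0.00029 without mTEC2 library 2 and 1.81 without library 1. Counts of called genes with 1 library left out ranged from 1833 to 2107 for HFC minus 6-week TEC (3274 with all), 1046 to 1428 for 6-week minus embryonic (2078), 5 to 182 for E17 minus E15 (88), 811 to 3049 for day 6 minus embryonic (1846), 95 to 2570 for mTEC2 minus mTEC1 (710), 0 (without either mTEC1 library, with 1328 and 1124 genes at an unadjusted limma p under 0.05) to 708 for mTEC4 minus mTEC1 (154) and 358 to 2407 for mTEC4 minus mTEC2 (849). A group left with 1 library was assumed to vary like the others. edgeR and DESeq2 called 3764 and 4900 genes for 6-week minus embryonic, 167 and 245 for E17 minus E15 and 415 and 565 for mTEC4 minus mTEC2, and DESeq2 236 for mTEC4 minus mTEC1. Fits of the compared groups alone called 505 (E17 minus E15), 0 (mTEC2 minus mTEC1), 67 (mTEC4 minus mTEC1) and 7 (mTEC4 minus mTEC2). For mTEC4 minus mTEC1, no filter gave 102 and a filter at a mean of 10 gave 89, and that filter gave 471 for mTEC4 minus mTEC2. The cause was not tested. Leaving out the 4 libraries under 200000 UMIs, chosen after seeing the data, gave 4869 and 2636 calls for HFC and embryonic TEC.

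Same-numbered libraries were treated as sharing only a number, since not every correlation of their deviations from group means was over 0.1. These were −0.323 to 0.144 among embryonic and day 6 groups and −0.224 to 0.845 at 6 weeks, where 28 of 40 were over 0.1 and the numbers largely follow the marker sets. In groups of 2 libraries, as in embryos and at day 6, both numbers give the same correlation by construction. The rule cannot show that same-numbered libraries are unpaired. With a replicate block on the title number, mTEC4 minus mTEC1 had 58 calls and Krt17 an adjusted p of 0.0537 there, and Krt15 in day 6 minus embryonic had 0.0559. The median of ratios scaling changed 634 higher and 2640 lower calls in HFC to 1159 and 1732. Doubling the marker thresholds left 11 of 16 libraries above one, and halving them 16. With 1 normalised UMI added, the median ratio of Krt5 to Krt8 in HFC was 5944 in place of 11373. The totals of the Pth-high libraries limit the precision of low keratins there.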
